A study of Mus musculus with 6 samples.

Results

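Cell adhesion receptors were examined in mouse lateral ventricular choroid plexus, the secretory tissue that makes cerebrospinal fluid and forms the barrier between it and blood. A gene was included when its biological process annotation contained the words cell adhesion, or when its symbol began with Cdh or Pcdh. Genes annotated to extracellular matrix, basement membrane, collagen or tight junction were left out, as were claudins and collagens. This gave 133 transcript clusters of the 3956 held in the deposited tables, a transcript cluster being the set of exon probe sets that measures 1 gene. The rule reads annotation and symbols only and used no measured value. Of the 133 clusters, 123 carry a single symbol and 10 carry several, and the value of a shared cluster cannot be assigned to 1 of its genes.

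The arrays compared whole plexus of Swiss Webster mice at embryonic day 15 (E15) with adult plexus, with 3 pools and thus 3 arrays at each age. Each E15 pool held tissue of 30 embryos of mixed sex and each adult pool that of 10 females, so that age and sex cannot be told apart. These pool sizes are those of the sample labels, and the study's own description gives others. The adults' age also differs between the sources and is not given here. All animals were healthy and untreated. The plexus was taken whole, with its vessels and stroma, and the RNA passed through rounds of amplification before it was labelled. The deposited values were already merged into 1 log2 value for each age and centred near 0 for each cluster. Differences below are adult less E15 on that log2 scale, positive where adult was higher, and a fold is 2 raised to their size. The merged values carry no spread between pools, so no error or test could be computed for any of them, and with 3 arrays an age their precision is limited. The tables hold no level of expression, so genes cannot be ranked by abundance, and the presence of a cell type cannot be read from them.

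Epithelial cells are held to each other by adherens junctions and desmosomes. In adherens junctions, cadherins of neighbouring cells bind each other and their cytoplasmic tails are tied to actin through catenins. In desmosomes, desmosomal cadherins are tied to keratin filaments through plakophilins. Integrins are pairs of an alpha and a beta chain that bind the cell to the matrix beneath it, while immunoglobulin superfamily members mediate recognition between cells, in vessels and nerves among other places. The choroid plexus is a neuroepithelial derivative, and its epithelium stands on a stroma with fenestrated vessels.

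Of the 133 adhesion clusters, 35 (26.3%) were at least 2-fold higher at E15 and 36 (27.1%) at least 2-fold higher in adult. Over all 3956 clusters these shares were 24.4% and 22.9%, so the adhesion clusters as a whole lay near the background in both directions. Their median difference was -0.22, against -0.16 for all clusters. Of these genes, 70 were in the gene-level table, which holds only clusters that passed the authors' corrected p of 0.05 and a 2-fold change, 34 of them higher at E15 and 36 in adult (48.6% and 51.4%, against 51.2% and 48.8% of that whole table). The other 63 came from the splicing index table alone, and 62 of them differed by less than 2-fold. Of the 63, 40 lay on the E15 side and 23 on the adult side, beside 1216 and 935 of all 2151 clusters found only there. The 1 cluster past 2-fold there was higher at E15, as were 1.95% of all clusters found only in that table. That table was selected on exon behaviour, so its share of genes below 2-fold is not that of all adhesion genes on the array. At 3-fold, 20 clusters (15%) were higher at E15 and 13 (9.77%) in adult, beside 9.98% and 8.87% of all clusters.

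**Figure D1:**
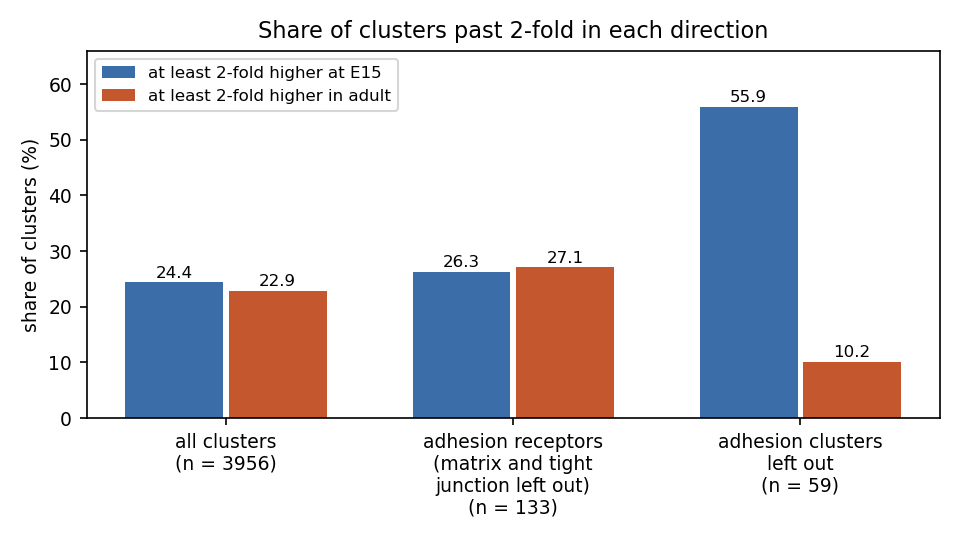
Share of transcript clusters (y axis, percent) that were at least 2-fold higher at E15 or in adult, among all 3956 clusters, the 133 adhesion receptor clusters and the 59 adhesion clusters left out for matrix, basement membrane, collagen or tight junction annotation. The first 2 sets have nearly equal bars, while 55.9% of the clusters left out were higher at E15 and 10.2% in adult.

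The balance depended on the exclusion. Before it, 192 clusters were annotated to cell adhesion or bore a cadherin symbol, 68 of them at least 2-fold higher at E15 and 42 in adult. The 59 clusters that the rule left out held 33 of the former and 6 of the latter, with a median difference of -1.22. Among the genes left out was Cdh5, the cadherin of endothelial cells, annotated to the tight junction, with a difference of -2.10. The plot of shares places these 3 sets beside each other.

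**Figure D2:**
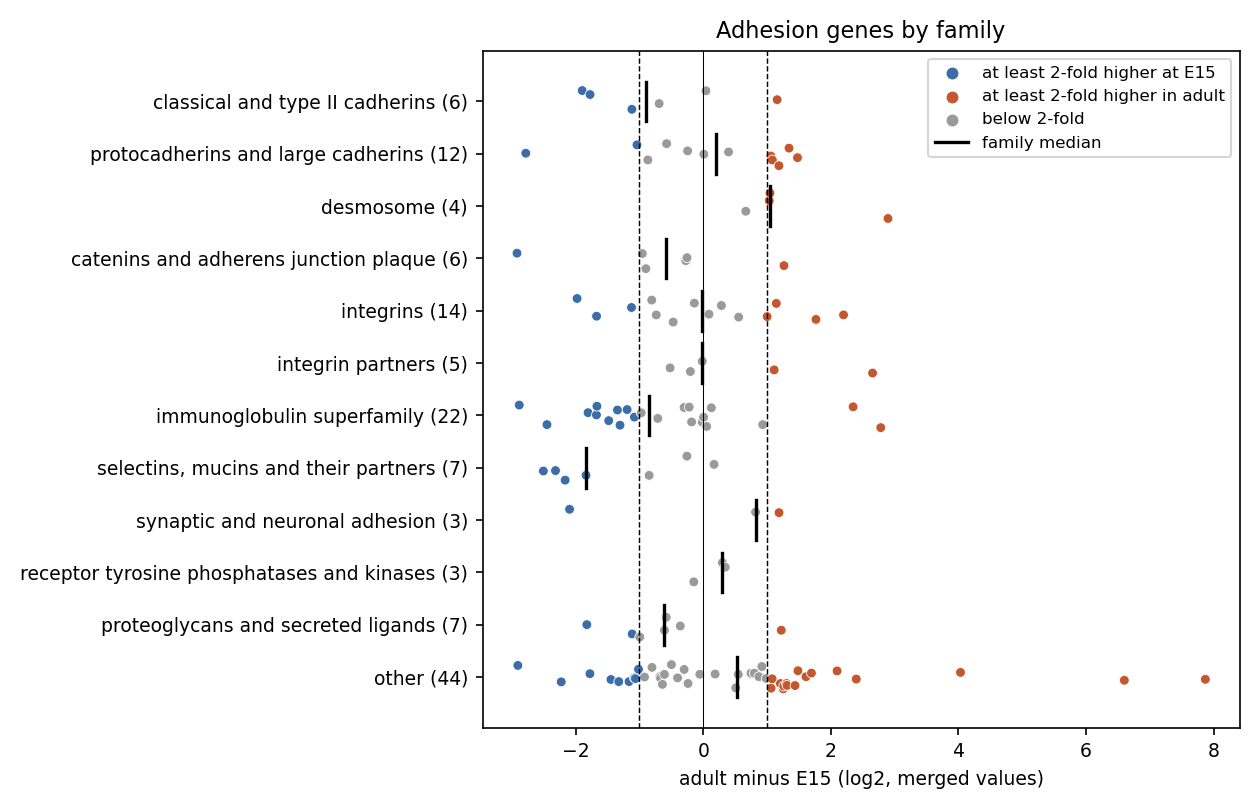
Adult minus E15 (x axis, log2) for each of the 133 clusters, by family (y axis, number of clusters in brackets). Points are single clusters, black bars family medians and dashed lines the 2-fold thresholds, with points jittered vertically. Desmosome genes lay to the right of 0. The group labelled selectins, mucins and their partners, which holds no selectin, and the immunoglobulin superfamily lay mostly to the left.

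By family, desmosome genes stood on the adult side, while cadherins and integrins were divided. Immunoglobulin superfamily genes and a mixed group of mucins and of lectin-like, hyaluronan and scavenger receptors lay mainly on the E15 side. The counts of each family are small and are read beside the background of 24.4% at E15 and 22.9% in adult. By side of 0 alone, 2141 of all 3956 clusters lay on the E15 side and 1815 on the adult side. The cadherin superfamily is counted here as cadherins, protocadherins and large cadherins, with the desmosomal cadherin Dsg2 placed in the desmosome family. Of its 18 clusters, 5 were at least 2-fold higher at E15 and 6 in adult. Of 14 integrins, 3 and 4 were. Of 22 immunoglobulin superfamily genes, 10 (45.5%) were higher at E15 and 2 (9.09%) in adult.

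Of the 6 classical and type II cadherins, 3 were at least 2-fold higher at E15 and 1 in adult. Cdh1 (cluster 6978923), the gene of E-cadherin, the cadherin of most epithelia, had a merged log2 value of -0.61 at E15 and 0.55 in adult. Its difference of 1.16 is a fold of 2.23 toward adult. Cdh2, the gene of N-cadherin, stood the other way, with 0.94 at E15 and -0.83 in adult, a fold of 3.42 toward E15. Its cluster is shared with a predicted gene. The E-cadherin and N-cadherin genes thus lay on opposite sides of 0, with their folds both past 2.

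Cdh11, a type II cadherin known from mesenchyme, had values of 0.74 at E15 and -1.16 in adult in a cluster shared with a cDNA clone. Cdh26 had 0.63 at E15 and -0.49 in adult, a fold of 2.17 toward E15. Both were higher at E15. Cdh10, a type II cadherin of neurons, was below 2-fold with a difference of -0.69, and Cdh22 had a difference of 0.04.

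Protocadherins are large relatives of the cadherins with a role in neuronal recognition and cell sorting. Of the 12 protocadherin and large cadherin clusters, 2 were at least 2-fold higher at E15 and 5 in adult. Pcdh18 was the most different, with values of 1.38 at E15 and -1.41 in adult. Pcdh10, a near neighbour of Pcdh18 in the genome, had 0.59 at E15 and -0.45 in adult, a fold of 2.06 that lies just inside the threshold. Pcdh17, Pcdh1 and Pcdh15, the last known from the tip links of hair cells, were on the same side below 2-fold, with differences of -0.87, -0.57 and -0.25.

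On the adult side were 3 single-gene clusters of the beta protocadherin array, a run of neighbouring intronless genes. Pcdhb18 had a value of -0.67 at E15 and 0.81 in adult, a fold of 2.79. Pcdhb22 and Pcdhb14 had folds of 2.28 and 2.09 toward adult. These genes are close copies of each other, so probes may share their signal. The alpha and gamma protocadherin arrays were measured by 1 shared cluster with 94 probe sets behind its index, and this cluster had a difference of 0.01. Pcdh7 was higher in adult with a fold of 2.12. Of the calsyntenins, cadherin-like proteins of neuronal membranes, Clstn3 was higher in adult with a fold of 2.54 and Clstn1 lay below 2-fold at 0.40.

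**Figure D3:**
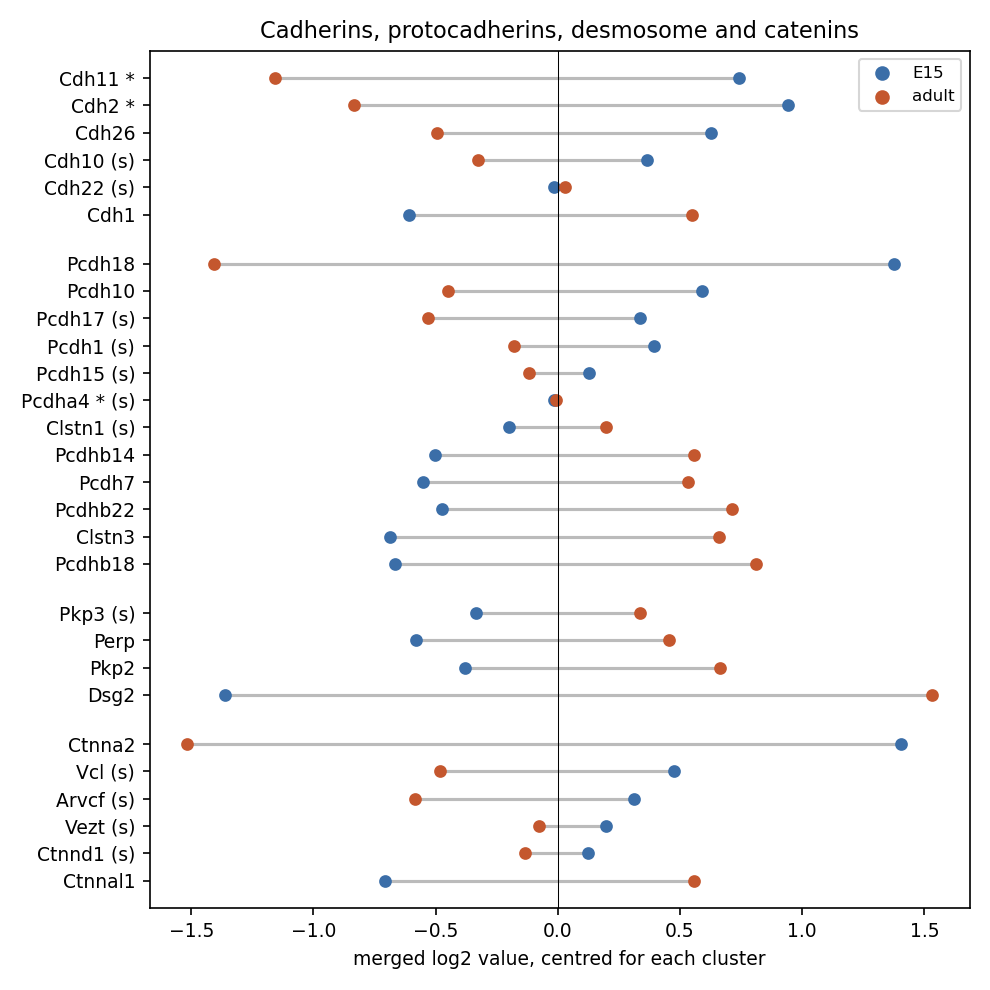
Merged log2 values at E15 (blue) and in adult (orange), centred for each cluster (x axis), for cadherins, protocadherins, desmosome genes and catenins from top to bottom. An asterisk marks a cluster with several symbols and (s) a cluster held only in the splicing index table. The blue point is on the right for Cdh11, Cdh2, Pcdh18 and Ctnna2 and on the left for Cdh1, the beta protocadherins and all desmosome genes.

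All 4 desmosome clusters lay on the adult side, 3 of them past 2-fold. Dsg2, the gene of desmoglein 2, the desmosomal cadherin of simple epithelia, had a merged value of -1.36 at E15 and 1.53 in adult. Its fold of 7.45 toward adult was the third largest of the single-gene clusters, after Prlr and Cpxm2. Pkp2, a plakophilin that ties desmosomal cadherins to keratin filaments, had -0.38 at E15 and 0.66 in adult, a fold of 2.06. Perp, a desmosomal membrane protein, had a fold of 2.05, just inside the threshold, and Pkp3 a fold of 1.59.

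The 6 genes of the adherens junction plaque were mostly on the E15 side. Ctnna2, the gene of alpha-N-catenin, which ties neural cadherins to actin, had a value of 1.40 at E15 and -1.52 in adult. Its difference of -2.92, a fold of 7.57, was the largest in size of all adhesion clusters toward E15. Ctnnal1, a catenin relative also called alpha-catulin, was the exception, with -0.71 at E15 and 0.56 in adult, a fold of 2.41 toward adult. Vcl (vinculin) and Arvcf had differences of -0.96 and -0.90, just short of 2-fold. Vezt and Ctnnd1, the gene of p120 catenin, which binds the tail of cadherins at the membrane, differed by -0.27 and -0.25.

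Related genes with opposite signs also included Cpxm1 and Cpxm2, members of the carboxypeptidase family with a discoidin domain. Cpxm2 had a value of -1.50 at E15 and 2.53 in adult, a fold of 16.4. Cpxm1 had 0.33 at E15 and -0.69 in adult, a fold of 2.02 toward E15 at the edge of the threshold. The promoters of these relatives are shown because the members of each pair went in opposite directions. They are from RefSeq on GRCm38.p6 and cover the 250 bases before the annotated start, 5′ to 3′ on the strand of the gene, which is the minus strand for all 4. Capitals mark the E-box CAGGTG or its reverse complement CACCTG, the sequence bound by the Snail and Zeb repressors of cadherin genes.
Ctnna2, chr6:77979668-77979917: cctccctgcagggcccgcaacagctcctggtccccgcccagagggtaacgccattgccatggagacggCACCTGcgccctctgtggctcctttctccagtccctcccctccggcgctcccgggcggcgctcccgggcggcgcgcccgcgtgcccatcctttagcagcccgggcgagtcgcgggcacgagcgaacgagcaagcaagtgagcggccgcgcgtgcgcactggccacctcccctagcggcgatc
Ctnnal1, chr4:56865212-56865461: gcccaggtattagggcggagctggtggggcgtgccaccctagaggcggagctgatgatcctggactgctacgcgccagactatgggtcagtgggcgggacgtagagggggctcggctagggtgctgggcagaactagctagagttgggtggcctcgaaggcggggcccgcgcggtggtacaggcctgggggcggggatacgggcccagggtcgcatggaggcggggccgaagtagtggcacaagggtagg
Cpxm1, chr2:130397630-130397879: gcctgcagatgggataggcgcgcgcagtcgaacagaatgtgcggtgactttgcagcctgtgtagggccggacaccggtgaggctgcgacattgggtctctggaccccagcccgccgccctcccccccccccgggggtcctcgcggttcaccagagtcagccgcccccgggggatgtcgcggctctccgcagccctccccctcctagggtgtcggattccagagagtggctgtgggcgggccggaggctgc
Cpxm2, chr7:132154742-132154991: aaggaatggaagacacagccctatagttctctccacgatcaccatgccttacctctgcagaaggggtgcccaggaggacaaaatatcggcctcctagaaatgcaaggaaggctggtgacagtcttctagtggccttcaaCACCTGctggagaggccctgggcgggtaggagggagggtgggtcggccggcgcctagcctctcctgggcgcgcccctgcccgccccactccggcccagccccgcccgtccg

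The E-box occurred 1 time in the window of Ctnna2, which was higher at E15, and 1 time in that of Cpxm2, which was higher in adult. It was not in the windows of Ctnnal1 and Cpxm1. The GC share was 73.2% for Ctnna2, 68.4% for Ctnnal1, 70.8% for Cpxm1 and 64.0% for Cpxm2. All 123 adhesion genes with a single symbol were matched to RefSeq by symbol or synonym, and 93 of them had 1 or more promoter windows in the RefSeq table. An E-box was held by 5 of the 24 windows of 22 genes higher at E15 (20.8%) and by 9 of the 32 windows of 23 genes higher in adult (28.1%). The share was 17.7% for adhesion genes below 2-fold and 17.2% of all 32851 windows of that table. A gene can have several windows, so windows are not independent. The median GC share was 63.8% for genes higher at E15, 59.2% for those higher in adult, 61.4% for those below 2-fold and 52.4% over all windows. No protein or binding was measured at these sequences, so the letters are a description only.

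Integrin genes went in both directions. Of the 11 alpha chains, 7 lay on the E15 side and 4 on the adult side, with 3 and 2 past 2-fold. All 3 beta chains lay on the adult side, 2 of them past 2-fold. The largest integrin difference was that of Itgb6, the beta chain that pairs with alpha-v in epithelia, with -1.15 at E15 and 1.05 in adult, a fold of 4.59. Itgav, its partner, had -0.42 at E15 and 0.58 in adult, a fold of 2.00 at the edge of the threshold. Of the other beta chains that pair with alpha-v, only Itgb5 was among the adhesion clusters, with a difference of 0.29.

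The laminin receptors did not share a direction. Itga6, an alpha chain of laminin receptors, had 0.93 at E15 and -1.05 in adult, a fold of 3.94 toward E15. Itgb4, which pairs with that chain in hemidesmosomes, had -0.49 at E15 and 0.65 in adult, a fold of 2.21 toward adult. Itga7, another laminin-binding chain known from muscle, had -0.91 at E15 and 0.85 in adult, a fold of 3.40. Itga3 was on the same side below 2-fold, at 0.56.

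Higher at E15 were 2 further alpha chains. Itga4, which binds fibronectin and Vcam1, had 0.96 at E15 and -0.71 in adult in a cluster shared with Cerkl. Itga8, a receptor for nephronectin, had 0.22 at E15 and -0.90 in adult, a fold of 2.18, but was held only in the splicing index table and so had not passed the thresholds of the gene-level list. It was the only adhesion cluster past 2-fold outside that list. Vcam1 itself differed by -0.02. Itga11, Itga5 and Itga2b, which bind collagen, fibronectin and fibrinogen, were below 2-fold at -0.81, -0.74 and -0.47. The leukocyte chains Itgal and Itgae lay near 0, at -0.14 and 0.09.

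**Figure D4:**
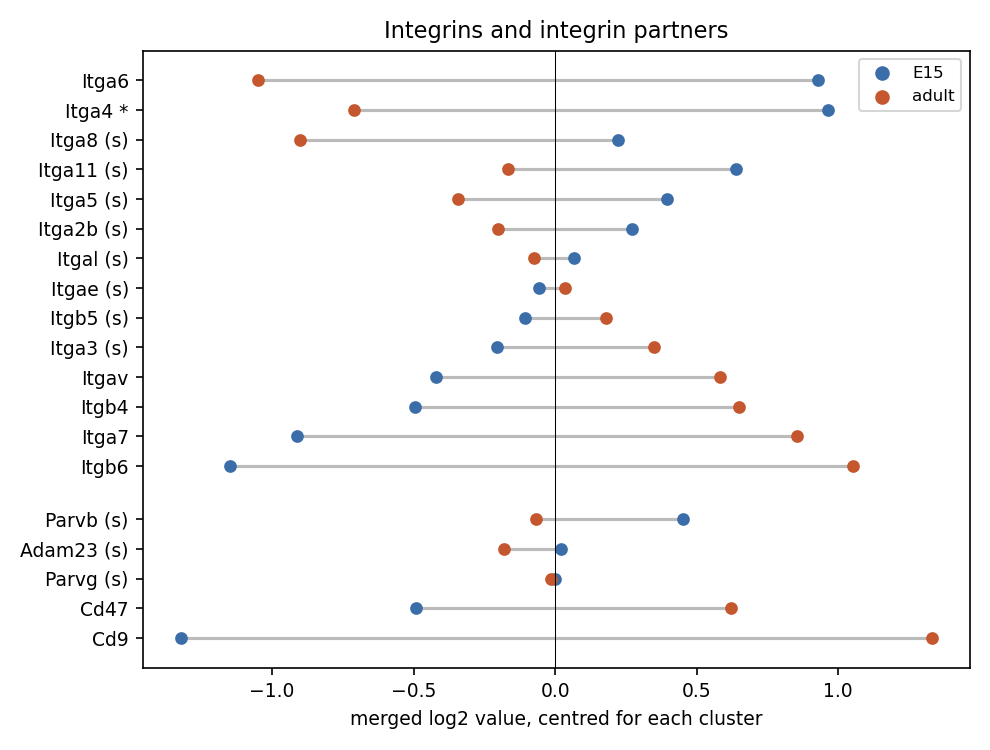
Merged log2 values at E15 (blue) and in adult (orange), centred for each cluster (x axis), for 14 integrin chains (top) and 5 integrin partners (bottom). An asterisk marks a shared cluster and (s) a cluster held only in the splicing index table. Itga6 and Itga4 had the higher value at E15, and Itgb6, Itga7, Itgb4, Cd9 and Cd47 had the higher value in adult.

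Of 5 integrin partners, 2 were at least 2-fold higher in adult and 0 at E15. Cd9, a tetraspanin that associates with integrins, had -1.32 at E15 and 1.33 in adult, a fold of 6.30. Cd47, the integrin-associated protein that also binds thrombospondin, had a fold of 2.16. The parvins Parvb and Parvg, cytoplasmic partners of integrin-linked kinase, differed by -0.52 and -0.01, and Adam23 by -0.20. The thrombospondins were divided. Thbs1 had a fold of 2.17 toward E15 and Thbs2 one of 2.33 toward adult, while Thbs4, at -0.99, fell just outside the threshold and Thbs3 differed by -0.36.

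Of the 22 immunoglobulin superfamily clusters, 16 lay on the E15 side, 10 of them past 2-fold, and 10 of the 22 were below 2-fold in either direction. Cntn4, a contactin of axons, had 1.41 at E15 and -1.48 in adult, a fold of 7.39. The contactins Cntn1, Cntn2 and Cntn3 stayed between -0.22 and 0.13. Dscam, a receptor of neuronal self-recognition, had a fold of 3.19 toward E15. Jam3, a junctional adhesion molecule, had 0.79 at E15 and -0.87 in adult. Negr1 and Hnt (neurotrimin), members of the IgLON family, had folds of 2.47 and 2.29, and Pvrl3 (nectin 3) one of 2.54. Sdk1 was past 2-fold with a difference of -1.08, and Sdk2 fell just outside at -0.97.

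The 2 immunoglobulin superfamily genes past 2-fold in adult were Cadm2 and Nfasc. Cadm1 and Cadm2, nectin-like molecules of synapses and epithelia, were opposite in sign. Cadm1 had 1.17 at E15 and -1.28 in adult, a fold of 5.46 toward E15. Cadm2 had -1.36 at E15 and 1.42 in adult, a fold of 6.88 toward adult. Nfasc (neurofascin), known from axon initial segments and nodes, had -1.03 at E15 and 1.32 in adult, a fold of 5.10. Its neighbour in the genome, Cntn2, differed by -0.22. Of the synaptic molecules, Amigo2 had a fold of 2.28 toward adult.

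Markers of other cells differed between the ages as well. Lists of 12 neural progenitor, 16 neuron and 9 oligodendrocyte symbols were looked up. A marker missing from the tables has no value, and the gene-level table holds only genes past 2-fold. Shares among the markers found, here and below, are therefore not those of the whole lists. Of 7 neural progenitor markers found, 6 were at least 2-fold higher at E15 and 0 in adult, among them Fabp7 at -2.73. Of 8 neuron markers, 3 were higher at E15, Dcx, Nefm and Gap43, and 5 in adult, including Snap25 at 1.52. Of 4 oligodendrocyte markers, 3 were higher in adult, among them Mbp at 2.09 and Mobp at 1.05, and 1 at E15, Cldn11 with a fold of 2.00. The part of these cells in the values of Cntn4, Cadm2 and Nfasc was not tested. In whole tissue, fewer cells of a type and less RNA per cell cannot be told apart.

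Of the 7 genes in the mixed group of mucins and of lectin-like, hyaluronan and scavenger receptors, 4 were at least 2-fold higher at E15 and 0 in adult. Cd93, a lectin-like receptor of endothelium, had 1.46 at E15 and -1.05 in adult, a fold of 5.68. Cd34, a sialomucin of endothelium and of blood progenitors, had 0.94 at E15 and -1.23 in adult, a fold of 4.48. Lyve1, a hyaluronan receptor of lymphatic endothelium and some macrophages, had a fold of 4.98, and Stab1, a scavenger receptor of macrophages and sinusoidal endothelium, one of 3.57. Cd44, the common hyaluronan receptor, differed by -0.26, Podxl2 by -0.85 and Cd164 by 0.17.

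From the immunoglobulin superfamily, Mcam and Pecam1, both known from endothelium, had folds of 3.50 and 2.79 toward E15. Eng (endoglin), a coreceptor of endothelium, was on the same side at -0.80. The endothelial list had 21 symbols, of which 12 were found, Pecam1 and Eng among them. All 12 lay on the E15 side, 8 of them past 2-fold, with a median difference of -1.17. Of 10 mesenchyme and pericyte markers found from 19 symbols, 9 were at least 2-fold higher at E15. Of 10 markers of macrophages and other leukocytes found from 22 symbols, 2 were higher at E15 (Mrc1 at -2.36 and Fcer1g at -1.36). In adult 4 were higher, all of the MHC class II group (Cd74, H2-Aa, H2-Ab1 and H2-Eb1). The part of these cell types in the values of Cd93, Cd34, Lyve1 and Stab1 was not tested. Of 16 markers of dividing cells found from 18 symbols, 16 were at least 2-fold higher at E15. Of 8 erythroid markers found from 16 symbols, 5 were, and 0 were higher in adult.

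The remaining genes past 3-fold toward E15 were of mixed function. Cercam, named for adhesion of cerebral endothelial cells, had 1.40 at E15 and -1.51 in adult, a fold of 7.50. Aebp1, a secreted carboxypeptidase-like protein of connective tissue, had a fold of 4.68. Cyr61, a matricellular ligand of integrins, and Ptk7, a receptor of planar cell polarity, had folds of 3.54 and 3.43. In each of these the E15 value was the higher.

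Some genes higher in adult were included through annotation to regulation of adhesion, among them both clusters of Prlr, the largest differences of all. Prlr, the prolactin receptor, had -3.80 at E15 and 4.08 in adult, and its second cluster, shared with Agxt2, had -3.28 and 3.32. Stat5a and Stat5b, transcription factors downstream of that receptor and adjacent to each other in the genome, carry the same annotation. Stat5a had a fold of 2.47 toward adult and Stat5b one of 1.98, just outside the threshold. The 4 camello clusters, acetyltransferase genes that lie together in the genome and are annotated to negative regulation of adhesion, were all past 2-fold in adult. Cml1 had -0.98 at E15 and 1.12 in adult, the cluster shared by Cml3 and Cml5 had a fold of 5.28, Cml2 with a cDNA clone had 2.80 and Cml4 had 2.09. The camello genes are similar in sequence, so their probes may share signal and they are not counted as independent. Ninj1 (ninjurin 1) and Rom1, a tetraspanin of photoreceptors, had folds of 3.24 and 3.05.

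Beyond the adhesion receptors, a list of 44 symbols or symbol stems of junction, polarity and cytoskeleton genes was looked up. Of the 26 clusters found, 8 were at least 2-fold higher at E15 and 6 in adult, beside the background of 24.4% and 22.9%. Gja1, the gene of connexin 43, had a difference of -3.25 and Zeb2, a repressor of E-cadherin in a cluster of 2 symbols, one of -1.11. Tjp1, a scaffold of tight junctions, and Cldn11 had folds of 2.02 and 2.00 toward E15, and the other 4 past 2-fold at E15 were Arhgap11a, Arhgap24, Arhgap19 and Arhgap8, from -2.50 to -1.09. On the adult side were Cldn2, Marveld3, Prkcz, Cgnl1, Actn1 and Cldn12, from 2.10 to 1.05. Of 10 clusters found from 21 choroid plexus epithelium symbols, 4 were at least 2-fold higher in adult (Kl, Cdh1 and both clusters of Prlr). Of these, Cdh1 and both Prlr clusters are themselves adhesion clusters, and the second Prlr cluster is shared with Agxt2. At E15, 3 were at least 2-fold higher (Lmx1a, Kcne2 and Foxj1), so the epithelial list had no single direction. Since the values are centred, they could not be used to check the tissue label itself.

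The splicing index, the authors' score for exons that depart from the change of their gene, was held for 116 of the 133 adhesion clusters. Its scale is not stated, and its size is at least 0.50 in the table. The largest sizes were those of Ctnna2 (3.02), Cadm1 (2.86), Dsg2 (-2.75), Cpxm2 (-2.58) and Itgb6 (-2.23), genes that also had large differences. Of the 54 adhesion clusters past 2-fold with an index, 47 (87.0%) had an index opposite in sign to the difference, against 77.1% of the other clusters past 2-fold. Below 2-fold the share was 38.7%, against 53.7% of the other clusters. These shares are a description over genes, which are not replicates.

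The 7 adhesion clusters past 2-fold whose index had the same sign as the difference were Itga7, Itgav, Pcdh7, Tnfrsf12a, Nrp2, Cdh26 and Pcdh10. They were named after their values had been seen. Vcam1 had an index of 2.16 with a gene difference of -0.02, and the shared alpha and gamma protocadherin cluster one of 1.68 with a difference of 0.01. Dst (dystonin), a linker of hemidesmosomes and cytoskeleton with epithelial and neural forms, had an index of -2.02 over 109 probe sets and a fold of 2.71 toward adult. No exon values are held, so the exons behind these scores cannot be named.

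**Figure D5:**
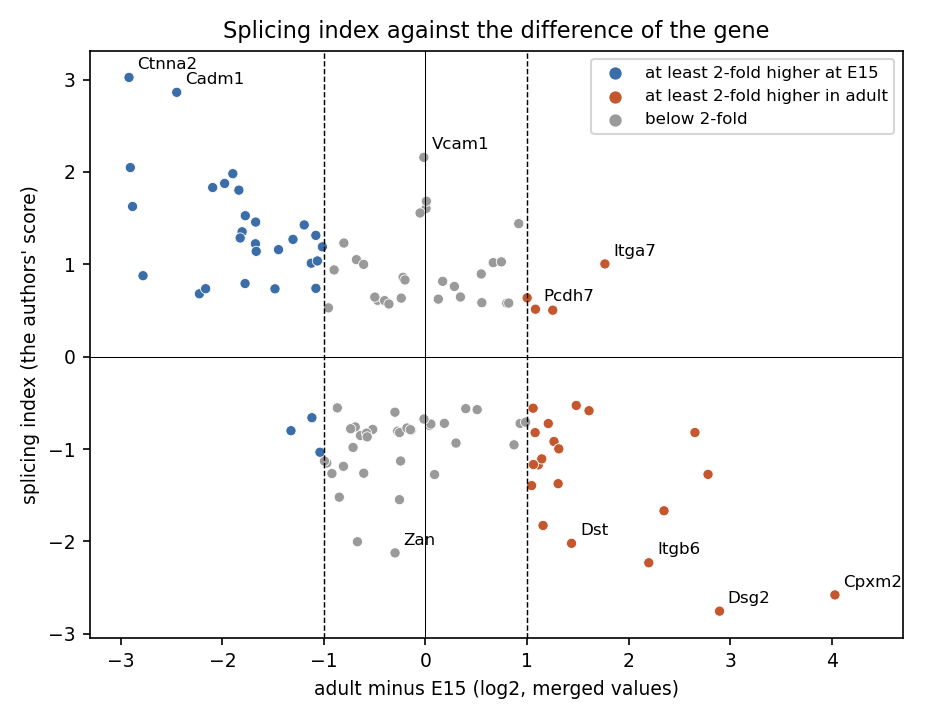
Splicing index (y axis, the authors' score with no stated scale) against adult minus E15 (x axis, log2) for the 116 adhesion clusters with an index, coloured by 2-fold call. Dashed lines mark 2-fold, and most points past them lie in the upper left and lower right, among them Ctnna2 at 3.02 and Dsg2 at -2.75.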

How the data were processed

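RNA of 3 E15 and 3 adult pools was hybridized to Affymetrix mouse exon arrays. Per the labels and methods, the authors made the gene-level log2 values with Affymetrix Power Tools by RMA with a per-chip median and an expression filter, and deposited 1 value per age for clusters that passed an unpaired test at a corrected p of 0.05 and a 2-fold change. The splicing index is a score that the authors derived from exon-level PLIER values and deposited with a minimum size of 0.5, together with the same log2 values. The deposited fold change columns and the table of clusters common to both lists were not used. The genome build of the arrays is not given in the sources used here.

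Both tables (1805 and 3369 clusters, 1218 in both) were joined to 3956 clusters. Shared clusters had identical values. A call means a fold of at least 2 by the merged values, with no test, since 0 columns hold a single array. The rule and the counts were tested on simulated data. Families were assigned by symbol. Named were all cadherin, desmosome, catenin and integrin genes, other genes past 3-fold, the 10 largest differences each way, the 5 largest indices and genes beside the threshold. Further genes, among them Pecam1, Eng, Cd44, Vcam1, the IgLON and contactin relatives, Stat5a and Dst, were named after their values were seen. Some genes that the rule names are not reported here. Members and lists were chosen with earlier results of these data known. RefSeq promoters and gene order are of GRCm38.p6. Python 3.11.15, numpy 2.4.6, pandas 2.3.3 and matplotlib 3.10.9 were used.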

Additional observations from a re-analysis of the deposited data

How the results depend on the processing

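The alternatives were computed on merged values, and the omission of each pool in turn could not be run. No paired analysis was possible because the columns hold 1 value per age and carry no replicate number. Raising the threshold to 3-fold left 20 adhesion clusters higher at E15 and 13 in adult. The cadherin superfamily, again without Dsg2, held 3 and 0 of these, the immunoglobulin superfamily 5 at E15 and the integrins 2 in adult. Leaving out electronic annotations left 21 at E15 and 17 in adult, 4 and 1 in the immunoglobulin superfamily, and 1 integrin in adult, since fewer genes entered. Keeping matrix and tight junction clusters gave 68 at E15 and a median difference of -0.44. The gene-level table alone gave a median difference of 1.02, because it holds no cluster below 2-fold. Re-centring each age on the median of the joined table added 0.16 to every difference and gave a median of -0.058 and a cadherin superfamily count of 3 at E15. Itga8, Cdh26, Thbs1, Gpr98, Sdk1, Tro, Pcdh10 and Cpxm1 then fell below 2-fold at E15, while clusters including Spg7, Hepacam and Stat5b passed it in adult, and 27 and 40 clusters were called beside 752 and 1030 of all 3956. Without shared clusters the cadherin superfamily count at E15 was 3, since those of Cdh2 and Cdh11 are shared, and the exact term name left 1 immunoglobulin superfamily gene in adult. Over the 71 named genes, 99 recomputed values were within 1.5 times the original and on its side of 0, and 9 were not. These values were the re-centred differences, the identical values held in the splicing index table, and the second cluster of Prlr. A shift of 0.16 or an identical value could not change the sign of a called difference. These counts are therefore no measure of how stable the genes are. Where no cause is given above, the cause was not tested.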
